A study of Mus musculus with 6 samples.

Results

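The genes described here encode the DNA replication machinery, 40 genes listed by function. A gene was read from its brightest probe set annotated to that gene only, with brightness taken as the mean over all 6 arrays. This gave values for 39 of the 40 genes, among 22180 genes measured in all. Rfc4 had no such probe set and was not analysed here. The tumours grew from B16-F1 cells, a pigmented mouse melanoma line, that had been inoculated into the dorsal flank of mice of C57BL6 background. Hosts were either wild type (WT, 3 tumours) or knockout for Stat2 (Stat2 KO, 3 tumours), and all tumours were taken at day 20. Stat2 is missing from the host, while nothing in the labels says that the implanted melanoma cells lack it. No drug or other treatment is named for either group. The labels do not say whether each tumour came from its own mouse. The p-values and intervals below therefore measure the spread between these tumours, which may not be the spread between hosts.

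Before a cell divides it copies its DNA once. In G1 the origin recognition complex, Cdc6 and Cdt1 load the ring-shaped MCM helicase onto origins, and in S phase Cdc45, the GINS complex and Mcm10 switch that helicase on. DNA polymerase alpha with its primase starts each strand, polymerases delta and epsilon extend it, and PCNA, the sliding clamp loaded by replication factor C, holds the polymerases on DNA. Most of these genes are transcribed at the passage from G1 to S phase by E2F transcription factors, so in a tumour their RNA is widely read as a sign of dividing cells. In bulk tumour RNA, fewer dividing cells and less of an RNA in each cell cannot be told apart.

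Each value is a log2 expression value of a probe set, and differences are log2 values of Stat2 KO hosts minus those of WT hosts. Values of different probe sets depend on the probes, so the levels of different genes are not compared. All 39 genes read above 5.21, the median level of 1105 olfactory receptor genes that serve as a reference for dim probe sets. Of them, 37 also read above 6.72, the level that 95% of those receptor genes stay under. Orc1 and Gins1, with means of 6.30 and 6.42, did not. Stat2 itself read 6.45, 6.48 and 6.33 in Stat2 KO hosts, against 6.79, 6.70 and 6.70 in WT hosts, with no overlap. Of all genes, 5.11% separated in this direction. The mean of Stat2 over the 6 tumours, 6.58, was also under 6.72, and its limma adjusted p was 0.532. The pigment cell genes Pmel and Mlana read 12.8 and 11.2 on average over the 6 tumours, far above the reference.

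Of the 39 replication genes, 37 read lower in tumours of Stat2 KO hosts, where 46% of all genes were lower. Their median difference was -0.21, which is 13.4% lower, against 0.02 for all genes. The lowest difference was -0.56, for Pole2, and the highest was 0.06, for Tyms. Prim1 (-0.47), Mcm3 (-0.45), Rrm2 (-0.40) and Cdt1 (-0.40) followed Pole2. With limma and Benjamini-Hochberg adjustment over all genes, 0 of the 39 passed an adjusted p of 0.05, where 0.00902% of all genes passed in the lower and 0% in the higher direction, and the smallest adjusted p was 0.486. At an unadjusted p under 0.05 there were 5 lower genes (Prim1, Mcm3, Pole2, Rrm2 and Cdt1) and 0 higher, where 3.48% of all genes were lower and 5.34% higher by that rule.

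**Figure D1:**
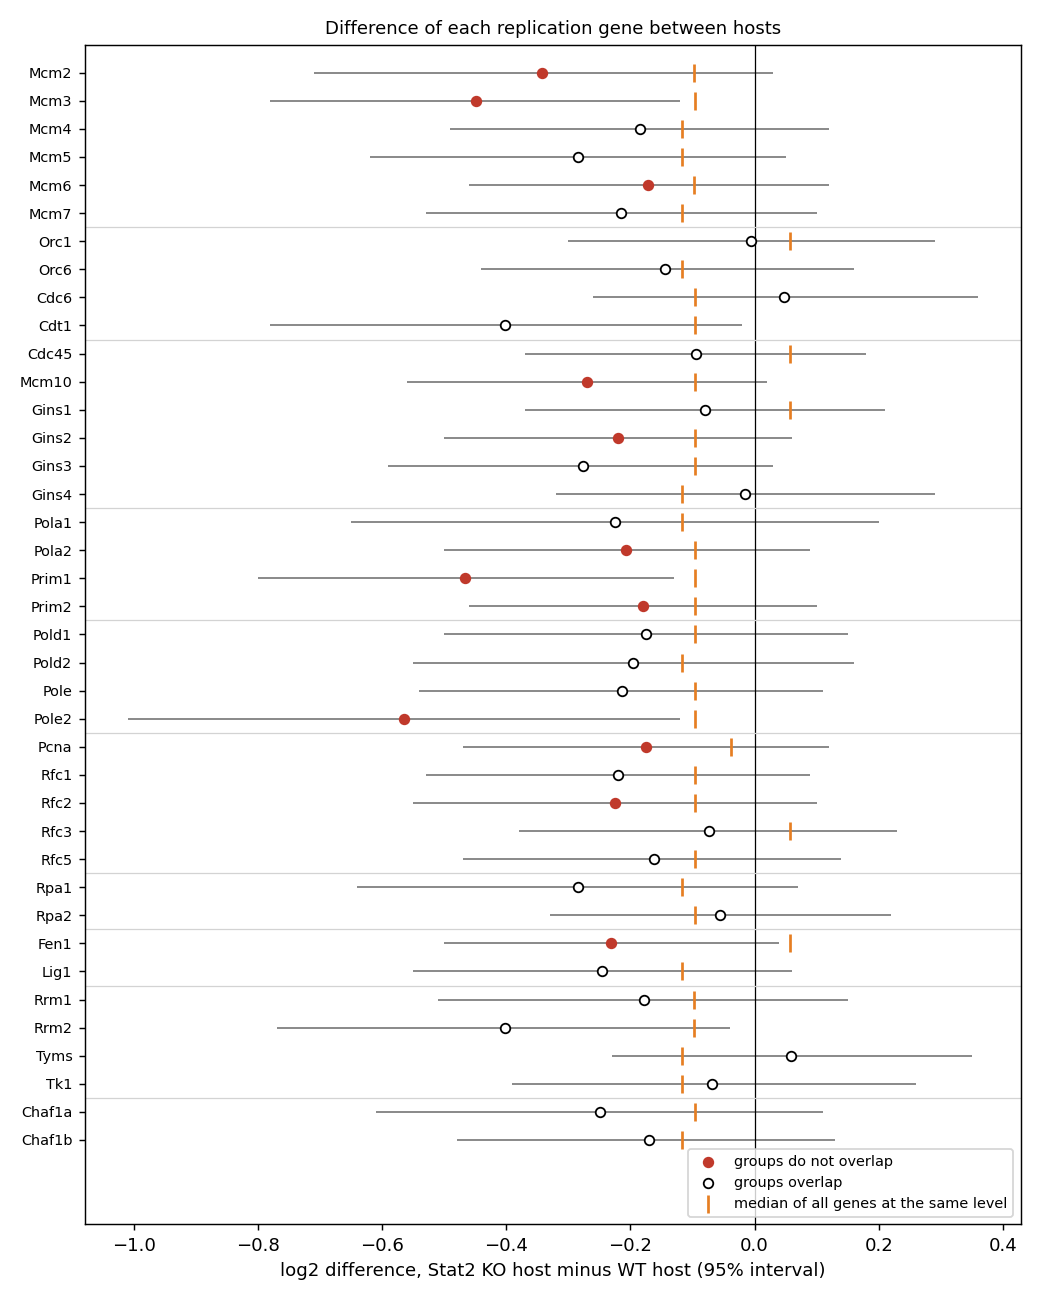
Log2 difference between Stat2 KO and WT hosts for each of the 39 replication genes (horizontal axis), ordered by role, with 95% intervals from limma and 3 tumours a group. Filled points mark the 12 genes whose groups do not overlap, the orange ticks give the median difference of all genes at the same level, and 5 intervals lie wholly below 0.

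The 95% interval reached 0.309 to either side of the difference in the median member, which is wider than the median difference itself. It excluded 0 for the 5 genes just named. In 12 of the 39 genes (30.8%) the highest Stat2 KO tumour was below the lowest WT tumour, where 5.11% of all genes did. The opposite separation occurred in 0 members, where 8.23% of all genes did. That share covers genes of every level, and dimmer genes tended to be higher in Stat2 KO hosts. At levels from 5 to 6, where no member lay, 23.6% of genes were lower. For any gene, groups that do not overlap give an exact two-sided permutation p of 0.1, the smallest that 3 against 3 can give.

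Equally bright genes of any function were also lower. Genes at a mean level between 5 and 6 had a median difference of 0.118, whereas those between 7 and 8, 8 and 9, and 9 and 10 had medians of -0.096, -0.117 and -0.097. Among all 6176 genes at levels from 7 to 9, 74.9% were lower in Stat2 KO hosts, 9.41% had groups that did not overlap in that direction, and 6.78% were lower at an unadjusted p under 0.05. The 29 replication genes at these levels were lower in 27 cases and did not overlap in 8 (27.6%). Of the 29, 4 (13.8%) were lower at an unadjusted p under 0.05, and their median was -0.21 against -0.10 for all genes there. Set against the median of all genes in the same 1-unit range of level, 34 of the 39 replication genes lay below it, and the median of their differences from it was -0.12. When the arrays were normalized further, by quantiles or cyclic loess, the raw median of the replication genes was -0.113 and -0.111, and 35 of 39 genes were lower in each case.

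**Figure D2:**
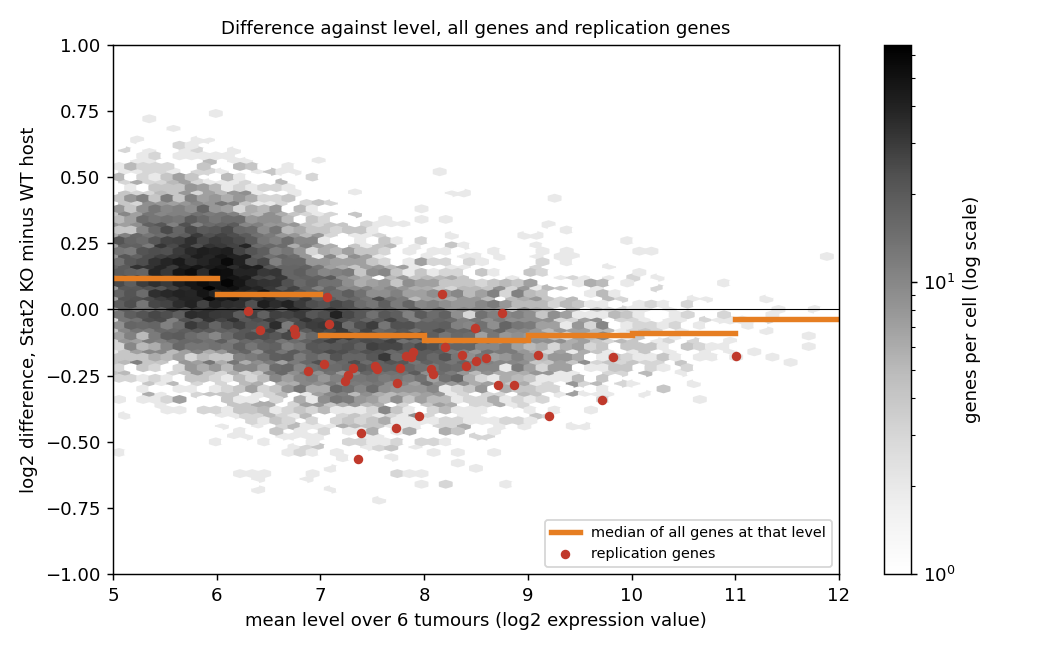
Log2 difference between hosts (vertical axis) against the mean level over the 6 tumours (horizontal axis) for all genes, as shades for the number of genes, and for the 39 replication genes as red points. Orange bars give the median of all genes in each 1-unit range of level, from 0.118 between 5 and 6 to -0.117 between 8 and 9, and 34 red points lie below the bar of their range.

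The MCM helicase, a ring of 6 related ATPases that unwinds the parental DNA, was lower in 6 of 6 subunits, with a median of -0.25. Mcm2 read 9.82, 9.16 and 9.66 in Stat2 KO hosts, against 9.87, 9.96 and 9.84 in WT hosts, a difference of -0.34 (SE 0.171, limma adjusted p = 0.591). The groups did not overlap, although the first Stat2 KO tumour came close to the WT range and the second Stat2 KO tumour lay far below the others. Mcm3 read 7.78, 7.33 and 7.40 against 8.01, 8.01 and 7.84, a difference of -0.45 (SE 0.151, limma adjusted p = 0.489), again with no overlap. Mcm6 read 9.08, 8.87 and 9.09 in Stat2 KO, against 9.15, 9.18 and 9.23 in WT hosts, separate but close, with a difference of -0.17.

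Mcm4, Mcm5 and Mcm7 overlapped between the groups. Mcm4 read 8.69, 8.35 and 8.48 in Stat2 KO hosts, against 8.66, 8.64 and 8.78 in WT hosts. Mcm5 read 8.98, 8.52 and 8.67 against 8.85, 9.09 and 9.07. Mcm7 read 8.52, 8.10 and 8.28 against 8.62, 8.50 and 8.43. In all 3 genes the first Stat2 KO tumour reached the WT range, and the differences were -0.19, -0.28 and -0.21. Without the second Stat2 KO tumour the median of the 6 subunits was -0.13 and that of Mcm2 -0.15.

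The factors that load the helicase were uneven. Cdt1, which brings MCM to the origin and is destroyed in S phase, read 7.96, 7.77 and 7.53 in Stat2 KO hosts, against 8.09, 8.48 and 7.89 in WT hosts, a difference of -0.40 (SE 0.174, limma adjusted p = 0.551). The second WT tumour stood highest, and without it the difference was -0.24. Orc6, a subunit of the origin recognition complex, differed by -0.14, and Orc1, its large ATPase subunit, by -0.01. Cdc6, the ATPase that works with it, differed by 0.05, with an interval from -0.26 to 0.36. The median of these 4 genes was -0.07.

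Among the genes that activate the loaded helicase, 6 of 6 were lower, with a median of -0.16. Mcm10, which starts unwinding, read 7.22, 6.93 and 7.16 in Stat2 KO hosts, against 7.38, 7.41 and 7.34 in WT hosts, a difference of -0.27 (SE 0.134). Its groups did not overlap, and its WT values lay closer together than those of any other of the 39 members. Gins2 read 7.24, 7.08 and 7.29 against 7.36, 7.48 and 7.44, also with no overlap, a difference of -0.22. Gins3 overlapped in a single pair of tumours and differed by -0.28. Gins1 (-0.08), Gins4 (-0.01) and Cdc45 (-0.09) had the smallest differences of these 6 genes. GINS holds Gins1 to Gins4 in equal number in the protein complex.

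DNA polymerase alpha and its primase were lower in 4 of 4 subunits, with a median of -0.22. Prim1, the catalytic subunit of the primase that lays down the RNA primer, read 7.36, 6.94 and 7.17 in Stat2 KO hosts, against 7.67, 7.78 and 7.42 in WT hosts. This was a difference of -0.47 (SE 0.153, limma adjusted p = 0.486), or 27.6% lower, with no overlap. Over all alternatives its difference lay between -0.57 and -0.36 and its adjusted p between 0.0575 and 0.908. Prim2, the regulatory primase subunit, read 7.87, 7.69 and 7.78 against 7.92, 8.04 and 7.93, and Pola2, the accessory subunit of the polymerase, read 7.08, 6.95 and 6.76 against 7.12, 7.11 and 7.19. Both were separate between the groups, with differences of -0.18 and -0.21. Pola1, the catalytic subunit of the polymerase, ran from 7.50 to 8.27 in Stat2 KO hosts and from 7.96 to 8.39 in WT hosts, and its difference of -0.22 was 0.001 without the second Stat2 KO tumour.

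The polymerases that copy most of the genome were lower in 4 of 4 subunits, with a median of -0.21. Pole2, an accessory subunit of the leading-strand polymerase epsilon, read 7.31, 6.55 and 7.39 in Stat2 KO hosts, against 7.79, 7.67 and 7.49 in WT hosts. Its difference of -0.56 (SE 0.203, limma adjusted p = 0.509) was the lowest of all members, yet it leaned on the second Stat2 KO tumour, and without that tumour it was -0.30. Pole, the catalytic subunit of polymerase epsilon, differed by -0.21, and Pold1 and Pold2, the catalytic subunit and an accessory subunit of the lagging-strand polymerase delta, by -0.17 and -0.20. A second, dim probe set of Pole differed by 0.14. The last 3 genes overlapped between groups, with the first Stat2 KO tumour at WT level in each.

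PCNA and its loader were lower in 5 of 5 measured genes, with a median of -0.18. Pcna read 10.99, 10.77 and 11.00 in Stat2 KO hosts, against 11.20, 11.04 and 11.05 in WT hosts, a difference of -0.18 (SE 0.137) with groups that did not overlap but came close. Rfc2 read 7.58, 7.14 and 7.57 against 7.75, 7.58 and 7.63. It separated only in the digits after the second decimal, and differed by -0.22. Rfc1, the large subunit of the loader, had the smallest p of this role, and read 7.73, 7.45 and 7.79 against 8.01, 7.78 and 7.83, an overlap of single tumours with a difference of -0.22. Rfc5 differed by -0.16 and Rfc3 by -0.07, both with overlap. Without the second Stat2 KO tumour the median of the 5 genes was -0.08. Pseudogenes of Pcna and of Tyms are listed in the gene table, and whether these probe sets also read them was not tested.

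The remaining roles held 2 or 4 genes each. Rpa1, the large subunit of the protein that coats single-stranded DNA, read 8.82, 8.27 and 8.63 in Stat2 KO hosts, against 9.0, 8.84 and 8.72 in WT hosts, a difference of -0.28 with overlap. A dim second probe set of Rpa1 differed by -0.02, and Rpa2, the middle subunit, by -0.06. Fen1, the nuclease that trims the flaps of Okazaki fragments, read 6.76, 6.75 and 6.78 against 6.91, 7.06 and 7.01, a difference of -0.23 (SE 0.125). Its Stat2 KO tumours lay closest together of all members, at values just above 6.72, the reference for dim probe sets. A second, dimmer probe set of Fen1 differed by 0.16, and the mean of both probe sets differed by -0.037. Lig1, the ligase that seals the fragments, read 8.16, 7.79 and 7.93 against 8.10, 8.28 and 8.24, with overlap, and differed by -0.25.

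Nucleotide supply was mixed, with 3 of 4 genes lower and a median of -0.12. Rrm2, the small subunit of ribonucleotide reductase that is made anew in S phase, read 9.21, 9.0 and 8.80 in Stat2 KO hosts, against 9.38, 9.68 and 9.15 in WT hosts, a difference of -0.40 (SE 0.167, limma adjusted p = 0.538). The groups overlapped, a second, dim probe set of Rrm2 differed by -0.30, and without the second WT tumour the difference was -0.26. Rrm1, the large subunit, differed by -0.18. Tyms, which makes dTMP, and Tk1, which recovers thymidine, differed by 0.06 and -0.07, with intervals from -0.23 to 0.35 and from -0.39 to 0.26. Of the histone chaperone CAF-1, which packs new DNA into nucleosomes, Chaf1a read 7.47, 7.06 and 6.90 against 7.27, 7.57 and 7.33 and Chaf1b differed by -0.17. Chaf1a overlapped and differed by -0.25.

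**Figure D3:**
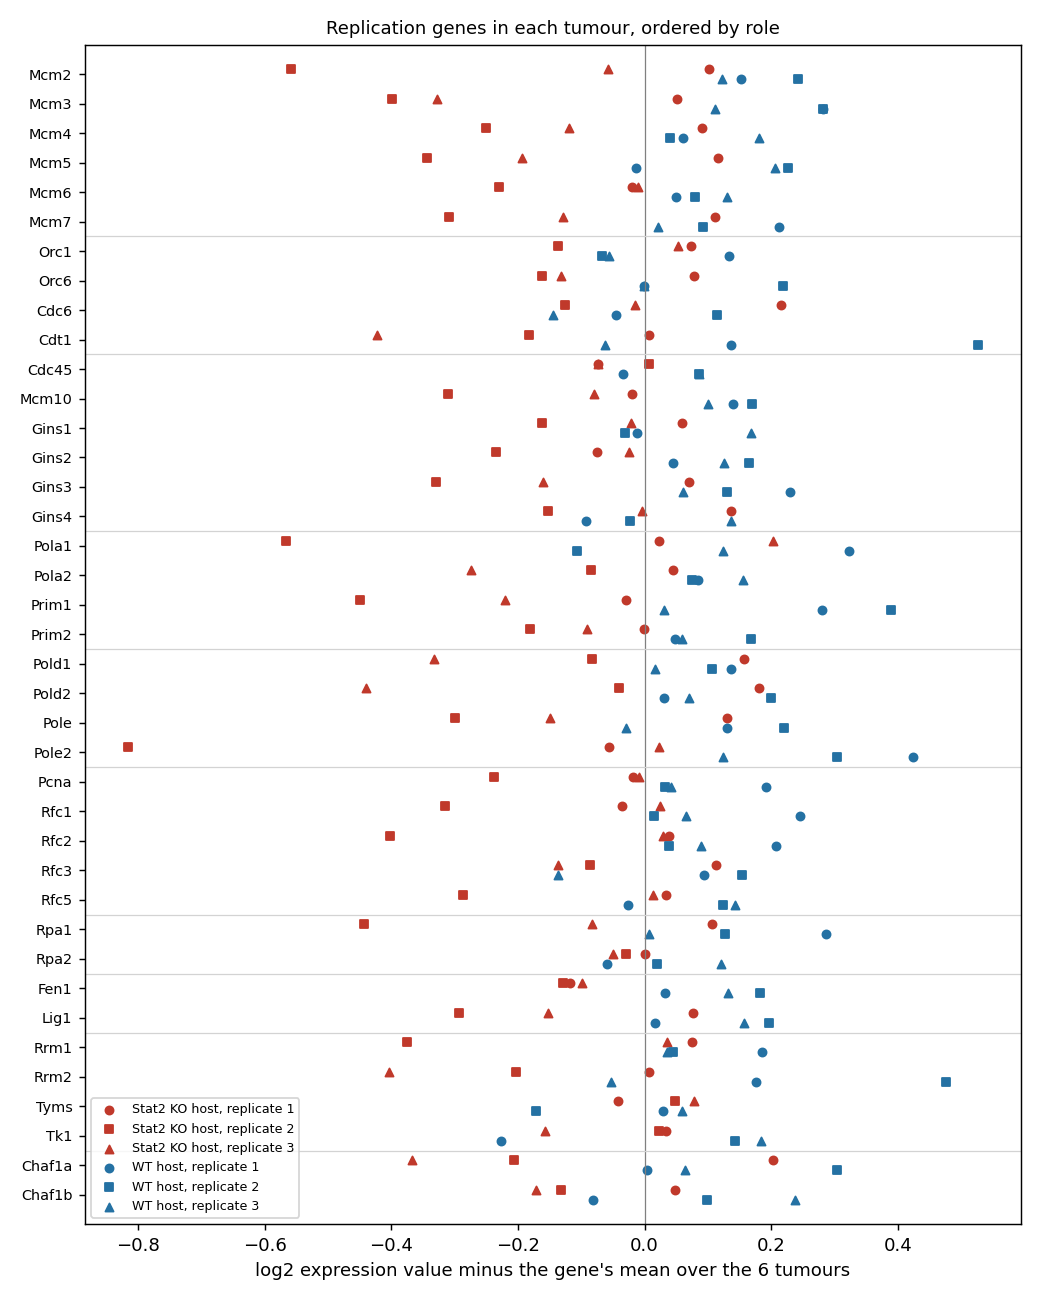
Log2 value of each replication gene in each of the 6 tumours minus that gene's mean (horizontal axis), with genes ordered by role and separated by grey lines. Red points are tumours of Stat2 KO hosts and blue points those of WT hosts, and the second Stat2 KO tumour (red square) is the lowest of the 6 in 26 of 39 genes.

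The 3 Stat2 KO tumours did not behave alike. The second was the lowest of all 6 tumours in 26 of the 39 genes, and the third in 8. The first was the lowest in 0. Among all genes at levels from 7 to 9, the second Stat2 KO tumour was the lowest in 46.4%. The mean deviation of the 39 genes from their own means was 0.049, -0.243 and -0.114 in tumours 1 to 3 of Stat2 KO hosts, against 0.097, 0.137 and 0.074 in WT hosts. The first Stat2 KO tumour came close to the WT tumours.

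Subtracting the median deviation of all genes at the same level left -0.012, -0.120 and -0.061 in Stat2 KO hosts, against 0.009, 0.083 and 0.096 in WT hosts. The highest Stat2 KO value, that of the first tumour, stayed just below the lowest WT value, also of the first tumour. The standard deviation over 3 tumours had a median of 0.176 in Stat2 KO and 0.096 in WT hosts over the members, and it was larger in Stat2 KO hosts for 29 of 39 genes. For all genes at levels from 7 to 9 these medians were 0.189 and 0.139, and the Stat2 KO spread was larger in 64.0%.

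**Figure D4:**
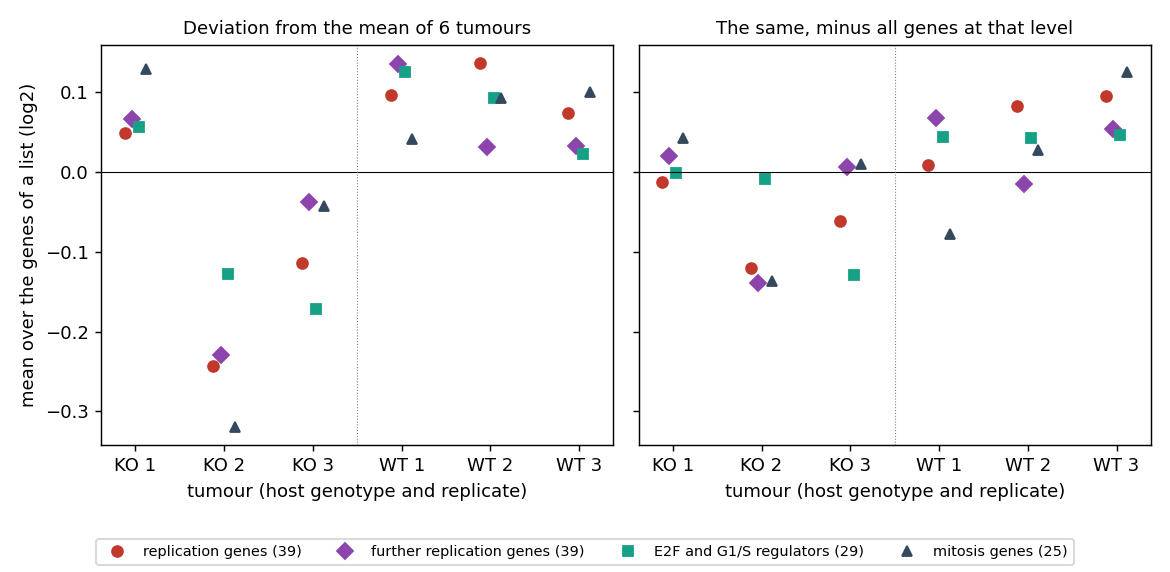
Mean deviation of 4 gene lists from their own means over the 6 tumours (left, log2) and the same after subtracting the median deviation of all genes at the same level (right), for each tumour on the horizontal axis. Red circles are the replication genes, at -0.243 in the second Stat2 KO tumour on the left and -0.120 on the right.

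Leaving out single tumours changed the size more than the direction. The median of the 39 genes was -0.12 without the second Stat2 KO tumour and -0.28 without the first, and 34 and 38 genes were lower. It lay between -0.21 and -0.20 without any of the other 4. The difference from equally bright genes moved less, to -0.087 and -0.141, and 33 and 34 genes lay below the median of their level. The number of members with separate groups was 27 without the first Stat2 KO tumour, 19 without the first WT tumour and 17 without the third WT tumour, against 12 with all tumours. Fewer tumours make separation easier, and the share of all genes separate in this direction was 14.7%, 8.10% and 14.24% in these settings. At an unadjusted p under 0.05 there were 14 lower members without the first Stat2 KO tumour, where 6.46% of all genes were lower. There were 3 without the second or the third Stat2 KO tumour (2.69% and 2.29% of all genes) and 2 without the first or the second WT tumour (1.96% and 1.69%), against 5 with all.

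**Figure D5:**
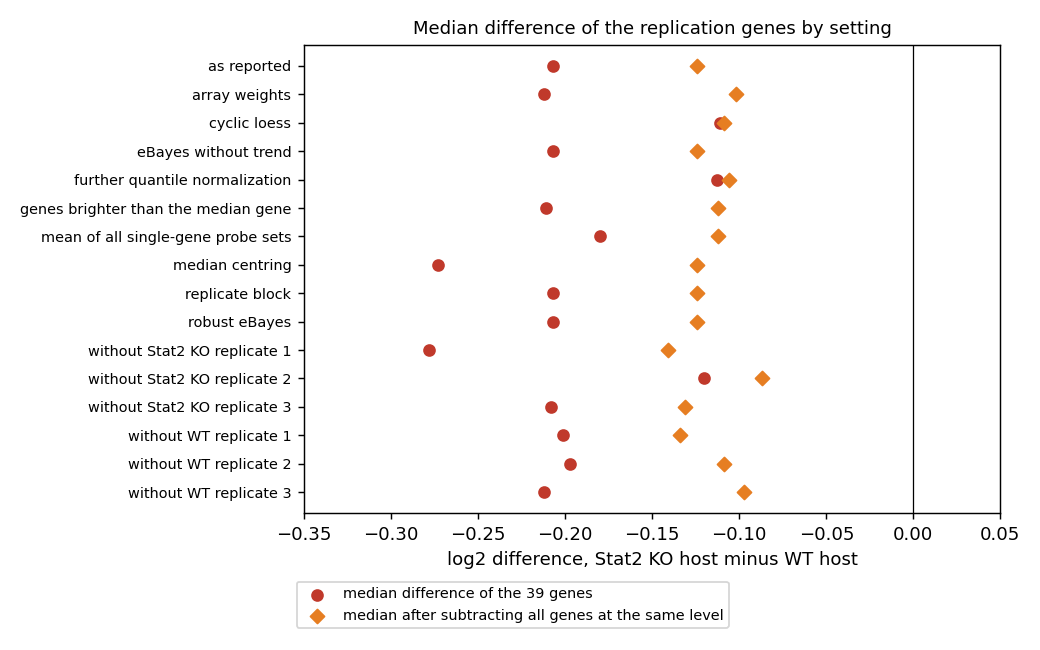
Median log2 difference of the 39 replication genes between hosts (red circles) and the median after subtracting all genes at the same level (orange diamonds), for the reported setting and each alternative on the vertical axis. Red circles run from -0.278 to -0.111 and orange diamonds from -0.141 to -0.087, and all lie below 0.

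The members varied together across tumours, as did mitosis genes and further replication genes. Over the 6 tumours the median pairwise correlation was 0.61 among the 39 genes and 0.86 among the 6 MCM subunits, against 0.30 for pairs of genes at levels from 7 to 9. Within groups, that is after removing each group's mean, these medians were 0.46, 0.76 and 0.30. Mitosis genes were at 0.68 by both measures, and further replication genes at 0.49 and 0.44. Regulators of the passage into S phase were at 0.37 and 0.29, close to genes at levels from 7 to 9. These points share arrays, normalization and the shift with level, so the values are a description. Mcm10, Mcm3, Prim2 and Gins3 followed the mean of the other members most closely (0.97, 0.96, 0.96 and 0.96), and Tyms went against it (-0.60).

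Other replication genes, listed by function, gave a smaller difference. Of 42 such genes 39 were measured, and 34 were lower, with a median of -0.15. At an unadjusted p under 0.05 there were 2 lower and 1 higher, where 3.48% of all genes were lower and 5.34% higher. None passed the adjusted threshold. The groups were separate, with Stat2 KO lower, in 9 genes (23.1%), where 5.11% of all genes and 9.41% of genes at levels from 7 to 9 were. Of the 39, 29 lay below the median of their level, and the median of their differences from it was -0.085. Atad5, which unloads PCNA, read 7.44, 7.08 and 6.86 in Stat2 KO hosts, against 7.69, 7.62 and 7.38 in WT hosts, a difference of -0.44. Tipin, a fork protection factor, differed by -0.33 and Uhrf1, which guides DNA methylation to new DNA, by -0.29. Dscc1, a subunit of an alternative clamp loader, went the other way. It read 7.97, 6.57 and 7.60 against 6.22, 6.05 and 6.86, a difference of 1.01 (SE 0.304, limma adjusted p = 0.462) with overlap between the second Stat2 KO and the third WT tumour.

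Regulators of the passage into S phase were lower in 25 of 29 measured genes, with a median of -0.17. At an unadjusted p under 0.05, 3 were lower and 0 higher, where 3.48% of all genes were lower and 5.34% higher. Of the 29, 20 lay below the median of their level, and the median of their differences from it was -0.10. Fbxo5, the inhibitor of the ubiquitin ligase APC/C that keeps geminin and cyclin A, read 7.41, 7.33 and 7.28 in Stat2 KO hosts, against 7.81, 7.80 and 7.56 in WT hosts, a difference of -0.38 with no overlap. The kinase gene Cdk6 differed by -0.49, the atypical E2F repressor gene E2f8 by -0.37 and the activator gene E2f3 by -0.39. Their adjusted p-values were 0.509, 0.553 and 0.571 in limma, and that of Fbxo5 was 0.497.

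Mitosis genes, which peak later in the cycle, were lower in 24 of 25 measured genes with a median of -0.18. Of them, 18 lay below the median of their level (34 of 39 for the replication genes), and the median of their differences from it was -0.06 against -0.12. Without the second Stat2 KO tumour the mitosis median was -0.008 with 15 of 25 lower, and the replication median -0.12 with 34 of 39 lower. The difference between these lists was not tested. Cdk1 read 9.29, 9.25 and 9.37 in Stat2 KO hosts, against 9.62, 9.70 and 9.55 in WT hosts, with no overlap and a difference of -0.32. Birc5, Nusap1 and Mad2l1 differed by -0.27, -0.24 and -0.26.

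Marker lists of other cells did not all move the same way. Macrophage and monocyte markers were lower in 11 of 12 genes with a median of -0.30, and their mean level ran from 6.18 to 6.43 in Stat2 KO and from 6.53 to 6.75 in WT hosts. C1qb read 6.22, 6.55 and 6.54 against 7.46, 7.59 and 7.10. Fibroblast markers were lower in 7 of 8 genes, with a median of -0.36 and mean levels of 6.32 to 6.73 against 6.79 to 7.08. Of 12 pigment cell and melanoma markers 9 were lower, with a median of -0.08, at mean levels of 10.69 to 11.15 against 10.93 to 11.19. Without the second Stat2 KO tumour the melanocyte median was 0.08. That tumour was the lowest of all 6 for the melanocyte, fibroblast and endothelial lists too. The macrophage means lay close to or below 6.72, the reference for dim probe sets. Set against the median of their level, 12 of 12 macrophage, 8 of 8 fibroblast and 6 of 12 melanocyte markers lay below it. Their median differences from it were -0.36, -0.26 and -0.02, against -0.12 for the replication genes.

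Endothelial markers had a median of 0.04 (3 of 7 lower), and markers of T cells, neutrophils, skeletal muscle and keratinocytes had medians of 0.12, 0.12, 0.14 and 0.18, with 1 of 8, 1 of 8, 2 of 8 and 2 of 7 lower. These last 4 lists had mean levels between 5.20 and 6.09 in every tumour, where genes of any kind tended to be higher in Stat2 KO hosts. No marker stands at 0 on an array of this kind. The part that the makeup of the tumours has in the replication genes' difference was not tested.

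E2F and CCAAT letters were looked for in the promoters as a description of these genes. RefSeq windows of 300 bases, from 250 before to 50 after a start, were at hand for 33 of the 40 genes (GRCm38.p6). The letters searched were TTTGGCGC, TTTCCCGC, TTTGCCGC and TTTCGCGC for E2F and CCAAT for the factor NF-Y, on both strands. E2F letters stood in the promoters of 13 of the 33 genes (39.4%), against 2.61% of all 27025 genes with a window and 5.11% of measured genes at levels from 7 to 9. CCAAT stood in 21 of the 33 (63.6%), against 41.1% of all genes. By window, 34.2% of 38 replication windows and 2.26% of all 32851 windows of this length held E2F letters. In the replication windows 1 E2F match shared bases with CCAAT.

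The stretches printed here are those in which E2F letters stand before the start of an MCM, GINS or ORC gene. Short sites just after the start of Mcm3 and Pole2, picked from members with the lowest differences, are printed too. Matches after the start of Cdt1, Lig1, Pold1, Rfc3 and Mcm7 are not printed. Each is written 5′ to 3′ on the gene's own strand, and capitals mark E2F or CCAAT letters on either strand. They are Mcm6 (chr1:128359706-128359825, minus strand), Mcm5 (chr8:75109339-75109498, plus), Mcm7 (chr5:138171894-138172063, minus), Gins3 (chr8:95633405-95633558, plus), Orc1 (chr4:108579324-108579453, plus), Mcm3 (chr1:20820267-20820294, minus) and Pole2 (chr12:69228163-69228190, minus).
Mcm6: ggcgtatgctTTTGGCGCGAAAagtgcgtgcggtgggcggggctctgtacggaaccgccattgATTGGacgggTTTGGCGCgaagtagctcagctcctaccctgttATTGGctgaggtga
Mcm5: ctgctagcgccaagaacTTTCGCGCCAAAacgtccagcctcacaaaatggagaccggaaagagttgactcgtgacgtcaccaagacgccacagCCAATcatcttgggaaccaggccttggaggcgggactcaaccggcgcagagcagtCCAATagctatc
Mcm7: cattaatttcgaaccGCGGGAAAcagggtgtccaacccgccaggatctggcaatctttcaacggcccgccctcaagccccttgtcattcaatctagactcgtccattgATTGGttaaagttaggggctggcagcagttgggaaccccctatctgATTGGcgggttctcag
Gins3: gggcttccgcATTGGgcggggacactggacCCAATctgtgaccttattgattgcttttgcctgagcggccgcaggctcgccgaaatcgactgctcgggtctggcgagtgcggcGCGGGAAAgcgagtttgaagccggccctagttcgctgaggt
Orc1: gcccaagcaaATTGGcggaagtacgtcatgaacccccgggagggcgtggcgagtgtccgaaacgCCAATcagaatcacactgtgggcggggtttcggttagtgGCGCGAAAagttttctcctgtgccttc
Mcm3: gGCGGGAAAacttgggaagtTTTGGCGC
Pole2: gtcggcggtgGCGCCAAAtcgcgaacat

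In Mcm6 the E2F letters begin 110, 106 and 47 bases before the start, and the first of these matches overlap, so that TTTGGCGCGAAA reads as a site on both strands. Mcm5 carries a similar overlapping pair, beginning 153 bases before the start. In Mcm7 a match begins 165 bases before the start and another lies after it, and in Gins3 and Orc1 a single match begins 41 and 27 bases before it. Members with E2F letters did not stand apart in the comparison of hosts. The 13 measured members with a match had a median difference of -0.225, with 12 lower and 3 with separate groups. The 19 with a window and no match had -0.196, with 18 lower and 6 separate. Of all genes 46% were lower and 5.11% separate in this direction, and at levels from 7 to 9 these shares were 74.9% and 9.41%. A match is a description of letters and not evidence of binding. E2F letters stood in 10 of 34 further replication genes, 8 of 21 S-phase regulators and 1 of 22 mitosis genes, and CCAAT in 17 of those 22.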

How the data were processed

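RNA of 6 tumours was measured on Affymetrix arrays, 3 from each host genotype. The authors deposited log2 expression values per probe set, and the submitters' processing notes name RMA and Expression Console 1.3.1. No source used here gives a genome build for the arrays. Of 41345 probe sets, 23521 were annotated to 1 gene, 1814 to several and 16010 to none, and genes were named only from the first kind. The brightest probe set stood for a gene, which gave 22180 genes. Differences were tested with limma 3.58.1 (R 4.3.3; lmFit and eBayes with an intensity trend, no covariate, two-sided), with Benjamini-Hochberg adjustment over all genes and a threshold of 0.05. The limma fit was tested on simulated data, with changes larger than any member's difference and without the shift with level. The number of arrays limits the precision.

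The members and all lists were chosen with earlier results of these data known, so lists are described by counts and medians and were not tested. Values in all 6 tumours are given for members whose groups do not overlap, the smallest p of each role, Mcm2 to Mcm7 and Pcna, and of other lists up to 4 genes with the smallest p were named. The other lists were further replication genes, S-phase regulators, mitosis genes, olfactory receptors and markers of melanocytes, macrophages, T cells, neutrophils, fibroblasts, endothelium, muscle and keratinocytes. Alternatives were further quantile normalization, median centring, cyclic loess, a filter on dim genes, the mean of a gene's probe sets, other moderation, array weights, a replicate block and leaving out each tumour.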

Additional observations from a re-analysis of the deposited data

How the results depend on the processing

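Across 15 alternatives 0 of the 39 replication genes passed the adjusted threshold in limma, 33 kept their sign in all 15, and the median ran from -0.278 to -0.111. Leaving out 1 tumour at a time gave medians from -0.278 to -0.120, 2 to 14 genes lower at an unadjusted p under 0.05 (1.69% to 6.46% of all genes) and 13 to 27 with separate groups (7.21% to 14.7%). Array weights gave 16 genes at that p (10.5% of all genes), and cyclic loess and quantile normalization 3 each (3.94% and 3.81%). Over all genes the adjusted threshold passed 257 with array weights, 1 with cyclic loess or eBayes without trend, 0 with quantile normalization and 0 to 17 without 1 tumour. Unadjusted, 2680 were higher and 2324 lower with weights, 300 higher among genes brighter than the median gene and 715 higher after centring (751 to 1828 higher and 375 to 1432 lower without 1 tumour).

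Signs turned for Cdc6 (-0.027 with weights, -0.018 after centring, -0.047 to 0.122 without 1 tumour), Gins4 (0.006 with weights, 0.102 with loess, 0.088 with quantiles, -0.087 to 0.059), Orc1 (0.049 with weights, -0.044 to 0.062), Pola1 (0.03 with weights, -0.38 to 0.001), Tk1 (0.049 with loess, 0.040 with quantiles, -0.20 to 0.006) and Tyms (-0.007 after centring, -0.014 to 0.104).

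The Okazaki median was -0.14 with the mean of probe sets, and that of nucleotide supply -0.015 with loess, -0.028 with quantiles and -0.19 after centring. The median of genes at levels 6 to 7 was 0.009 with loess, 0.014 with quantiles, 0.018 among brighter genes and -0.010 after centring. At 7 to 8 it was -0.011 with loess and -0.007 with quantiles, at 8 to 9 -0.001 with loess, and at 11 to 12 -0.10 after centring. The keratinocyte median was 0.063 with weights (0.042 to 0.213 without 1 tumour), the neutrophil median 0.016 with loess and 0.019 with quantiles, the macrophage median -0.59 and the muscle median 0.27 among brighter genes. Without 1 tumour the macrophage median ran from -0.44 to -0.22 and the mitosis median from -0.28 to -0.008. The cause was not tested.

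Between tumours with the same replicate number the deviations correlated at 0.24, 0.08 and 0.03, so the numbers were not taken as pairs. Not every tumour correlated best with its own number. The second Stat2 KO tumour stood at 0.205 with the third WT tumour and at 0.079 with the second. With the replicate number as a block the median was -0.207 and 5 members were lower at an unadjusted p under 0.05, where 4.76% of all genes were.

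Signal over background limits Orc1 and Gins1, whose means of 6.30 and 6.42 lie under 6.72. Of the olfactory receptor genes, 95% stay under that level. Cdc45 and Rfc3, with means of 6.752 and 6.745, cleared it narrowly, and their Stat2 KO means of 6.705 and 6.709 lay under it. The Stat2 KO mean of Fen1, 6.762, lay just above it.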
